A study of Mus musculus with 6 samples.

Results

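Collagen chain genes were taken as all genes whose symbol had the form Col, a type number, the letter a and a chain number, provided that they averaged 10 counts or more across all 6 libraries. Of 45777 genes in the deposited table, 44 had such a symbol and 41 of them reached the count minimum. Col2a1, Col9a1 and Col10a1, chains of cartilage collagens, did not, with mean counts of 6.00, 2.33 and 3.67. The 41 genes held 10 fibrillar chains, 8 chains of basement membrane collagens (types IV, XV and XVIII) and 23 other chains.

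Collagens are secreted as triple helices of 3 chains, so the chains of 1 type have to be made together. Fibrillar types I and III form the interstitial fibres of the heart and are made mainly by fibroblasts, while type IV forms the sheet under endothelium and around each cardiomyocyte. The remaining types bind to fibrils, form networks or microfibrils, or span the cell membrane, and several of them are best known from cartilage, skin or nerve. Accumulation of types I and III is the textbook hallmark of cardiac fibrosis, which the study examined in hearts exposed to doxorubicin (Dox). By tissue staining the study reported more collagen with Dox and partly less fibrosis when the ginsenoside Rh2 was added. The levels given here are of RNA, a different measure from stained collagen.

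RNA was sequenced from hearts of BALB/c nude mice (CAnN.Cg-Foxn1nu/Crl, female, 6 weeks old when the experiment began). These mice lack a thymus and its T cells, and all carried subcutaneous tumours of the human breast cancer line MDA-MB-231. The 6 conditions were Control (vehicle), the ginsenoside Rh2 (a ginseng saponin) at 20 mg/kg (Rh2-20 mg/kg) or at 30 mg/kg (Rh2-30 mg/kg) daily, Dox at 2 mg/kg every other day to a cumulative 22 mg/kg, and Dox combined with either dose of Rh2, over 3 weeks. Each condition had 1 library, made from the pooled RNA of 5 hearts, so no condition was replicated and the spread between mice was not measured. Tests were therefore possible only across conditions: the 3 libraries with Dox against the 3 without, the 4 with Rh2 against the 2 without, and the interaction of both.

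The libraries held 86164411 to 90621002 counts. Levels of 1 gene across libraries are given as CPM (counts scaled to a common library size after TMM normalization), and levels compared between genes as FPKM, which divides by transcript length. Where 6 values are given, they stand in order of the Rh2 dose (0, 20 and 30 mg/kg), first without and then with Dox, so the first is Control and the fourth Dox alone. Cardiomyocyte markers were present in all libraries, with a sum over 6 genes of 84349 to 113509 CPM and the lowest value in Rh2-30 mg/kg. The Rh2-30 mg/kg library stood apart from the others. It held 6442 counts of Ucp1, the uncoupling protein of brown fat, against 0 to 12 elsewhere, and 3716 counts of the fat hormone Adipoq, against 8 to 650 elsewhere. Its 3 mesothelium markers summed to 23.2 CPM against 2.63 to 10.0 elsewhere, and its 3 Schwann cell markers to 29.3 CPM against 12.9 to 18.0. The tests for Dox and Rh2 were therefore also run without it. In bulk RNA, fewer cells of a type and less RNA per cell cannot be told apart.

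RefSeq (GRCm38.p6, the build of mm10) gave a promoter window for 33 of the 41 genes. Shown are the 150 bases upstream of the start of Col1a2 and Col3a1, fibrillar chains whose ratio separated the libraries with and without Dox, and of Col6a1 and Col6a2, neighbouring collagen genes on chromosome 10 that were both lower in all Dox libraries. Each is written 5′ to 3′ on the strand of its gene, with matches to the letters CCAAT, to the TATA box written TATAAA and to the GC box written GGGCGG, or to their reverse complements, in capitals.
Col1a2, chr6:4505468-4505617, plus strand: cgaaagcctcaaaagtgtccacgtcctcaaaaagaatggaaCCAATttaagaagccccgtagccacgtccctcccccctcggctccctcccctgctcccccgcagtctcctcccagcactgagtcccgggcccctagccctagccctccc
Col3a1, chr1:45311388-45311537, plus strand: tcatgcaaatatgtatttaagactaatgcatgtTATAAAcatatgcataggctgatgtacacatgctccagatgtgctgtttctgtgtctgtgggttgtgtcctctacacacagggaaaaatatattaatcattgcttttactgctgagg
Col6a1, chr10:76726045-76726194, minus strand: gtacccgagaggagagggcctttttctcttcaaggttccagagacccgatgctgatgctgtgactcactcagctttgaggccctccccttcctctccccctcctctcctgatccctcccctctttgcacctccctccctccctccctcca
Col6a2, chr10:76623631-76623780, minus strand: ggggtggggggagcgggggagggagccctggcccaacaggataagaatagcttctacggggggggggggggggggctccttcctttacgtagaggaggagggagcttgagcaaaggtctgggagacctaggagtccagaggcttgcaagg
The stretch of Col1a2 held 1 CCAAT and that of Col3a1 held 1 TATAAA, while none of the 3 motifs was in the stretches of Col6a1 and Col6a2. Over 250 upstream bases on both strands, CCAAT was in 12 of the 33 genes (36.4%, against 37.5% of all 27025 genes with a window), TATAAA in 4 (12.1% against 14.3%) and GGGCGG in 21 (63.6% against 35.4%). A gene with several windows was counted once if any of them held the motif, and a match describes letters, not a site in use. Col4a1 and Col4a2 lie head to head on chromosome 8, and their RefSeq starts, on opposite strands, overlap by 22 bases.

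Per length, the levels spanned a wide range. Averaged over the 6 libraries, Col3a1, the only chain of type III, was highest at 60.5 FPKM. The type IV chains Col4a1 (44.8 FPKM) and Col4a2 (42.4 FPKM) followed, then Col1a2 (32.8 FPKM), Col15a1 (28.5 FPKM), Col1a1 (20.5 FPKM), Col6a2 (19.2 FPKM) and Col6a1 (19.2 FPKM). In all, 14 genes had a mean of at least 5 FPKM, 12 lay between 0.5 and 5 FPKM, and 15 were below 0.5 FPKM. Neighbours in this order changed places between libraries: Col4a1 was 0.928 to 1.20 times Col4a2. The 15 lowest included chains known from other tissues, such as Col17a1 of the epidermal hemidesmosome (0.0357 FPKM) and Col9a2 of cartilage (0.0812 FPKM).

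Summed by class, the fibrillar genes reached 1070.2, 1054 and 1918 CPM without Dox and 873, 973 and 540.1 CPM with it. The Rh2-30 mg/kg library was the highest and the library of the same Rh2 dose with Dox the lowest, and the other 4 lay close together. Basement membrane genes summed to 1310.2, 1152 and 1383 CPM without Dox and 775, 895 and 774 CPM with it. Here all 3 Dox libraries were below all 3 libraries without Dox, and no library without Dox stood far from the others. Most of this sum came from Col4a1, Col4a2 and Col15a1 (461, 470 and 252 CPM in Control). In the remaining genes of the class the groups overlapped. The other types summed to 544, 552 and 864 CPM without Dox and 539, 560.5 and 379.8 CPM with it, with the same high and low libraries as the fibrillar class and the Dox library next to Control.

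**Figure D1:**
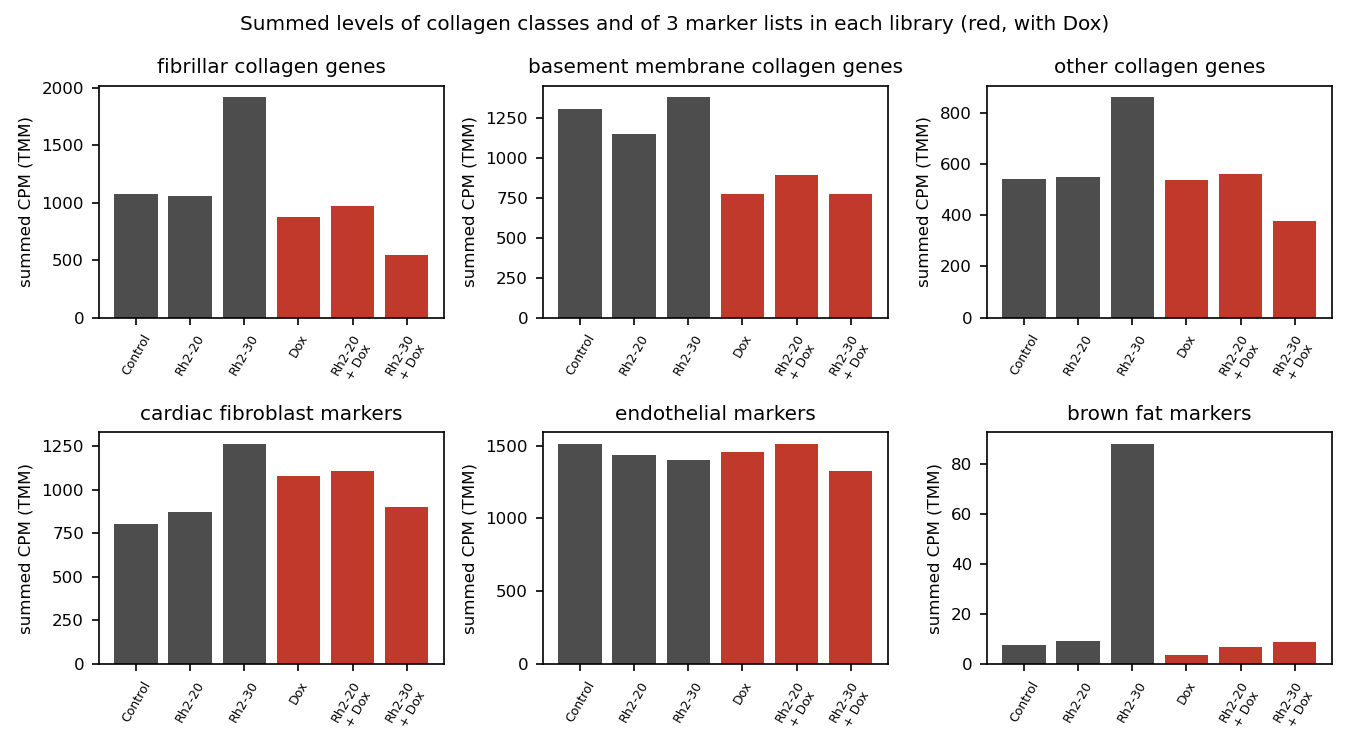
Summed CPM (vertical axis) of the 3 collagen classes and of 3 marker lists in each of the 6 libraries (1 bar per library, no error bar because each condition had 1 library; red bars had Dox). The basement membrane sum is 774 to 895 CPM in the 3 Dox libraries and 1152 to 1383 CPM in the 3 others, while the endothelial sum, led by Kdr, is 1322 to 1514 CPM with overlapping groups (its member Cdh5 alone is 206 to 238 CPM with Dox and 250 to 270 CPM without).

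Dox was compared over 3 libraries with and 3 without it, using edgeR's quasi-likelihood test over 18328 genes with Benjamini-Hochberg adjustment. Of the 41 collagen genes, 29 were lower and 12 higher with Dox, where 52.8% of all genes tested were lower and 47.2% higher. An unadjusted p under 0.05 was reached by 10 collagen genes, all of them lower, against 5.91% of all genes in the lower and 4.2% in the higher direction. None passed adjustment (smallest adjusted p = 0.216), where 5 genes of the whole table did (0.0164% of all genes higher and 0.0109% lower). With DESeq2's Wald test 12 collagen genes had an unadjusted p under 0.05, all lower (6.23% of all genes lower and 5.06% higher). It called 5 of the 10 at an adjusted p under 0.05: Col4a1, Col4a2, Col15a1, Col6a2 and Col28a1, all lower, where it called 1.52% of all genes lower and 0.797% higher. The median log2 difference was -0.29 over the collagen genes and -0.01 over all genes. These tests treat libraries of different Rh2 dose as replicates, so their p-values measure the spread between these pools only.

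By level, the differences were unevenly spread. Among the 14 genes of at least 5 FPKM, 13 were lower with Dox and 7 of them had an unadjusted p under 0.05, against 46.5% and 4.18% of all genes at that level. Of the 12 genes between 0.5 and 5 FPKM 8 were lower, and of the 15 below 0.5 FPKM 8 were lower, where 55.2% and 59.8% of all genes at those levels were. The median log2 difference was -0.51 in the highest group, -0.18 in the middle and -0.06 in the lowest.

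**Figure D2:**
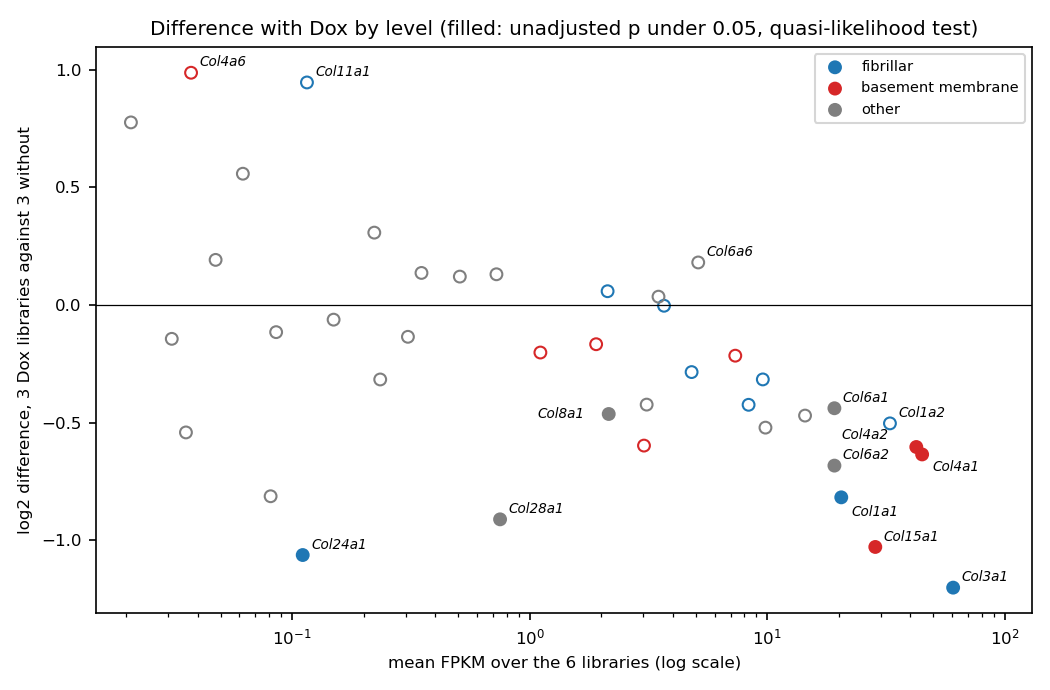
Each point is 1 of the 41 collagen genes, with its mean FPKM over the 6 libraries (horizontal, log scale) and its log2 difference between the 3 Dox libraries and the 3 without (vertical, quasi-likelihood fit). Filled points had an unadjusted p under 0.05, and all 10 of them are below 0, 7 of them at 5 FPKM or more.

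Among the fibrillar chains, Col3a1 stood at 432, 443 and 925 CPM without Dox and 267, 372 and 144 CPM with it. All Dox libraries were below all others, but the largest gap was between the pair at 30 mg/kg of Rh2, and Rh2-20 mg/kg + Dox was close to Control. The difference with Dox was -1.20 on the log2 scale (edgeR quasi-likelihood unadjusted p = 0.0235, adjusted p = 0.415). It was -0.74 without the Rh2-30 mg/kg library (unadjusted p = 0.071 in the same quasi-likelihood test), -0.91 without the Rh2-30 mg/kg + Dox library (unadjusted p = 0.0515) and -0.45 without both libraries of that dose (unadjusted p = 0.0275).

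Type I collagen is assembled from Col1a1 and Col1a2 chains. Col1a1 stood at 157, 155 and 286 CPM without Dox and 124, 146 and 69.5 CPM with it. Its Dox libraries were below the others, with Rh2-20 mg/kg + Dox only slightly so (quasi-likelihood log2 difference -0.82, unadjusted p = 0.0444, adjusted p = 0.48). Without both Rh2-30 mg/kg libraries the log2 difference was -0.21 (unadjusted p = 0.104). Col1a2 stood at 208, 199 and 369 CPM without Dox and 212, 207 and 129 CPM with it. Unlike Col1a1, it was as high with Dox alone or with Dox and the lower Rh2 dose as in Control, and the groups overlapped (quasi-likelihood log2 difference -0.50, unadjusted p = 0.126, adjusted p = 0.606). Without both Rh2-30 mg/kg libraries its log2 difference was 0.05.

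The chains of type V, which regulate the start and width of type I fibrils, showed smaller differences. Col5a1 stood at 107, 102 and 131 CPM without Dox and 102, 97.2 and 74.1 CPM with it, with the Dox library equal to Rh2-20 mg/kg (quasi-likelihood log2 difference -0.32, unadjusted p = 0.0767, adjusted p = 0.548, and a log2 difference of -0.19 without the Rh2-30 mg/kg library). Col24a1, a minor fibrillar chain known from bone, had few counts: 81, 131 and 164 counts without Dox and 59, 61 and 54 counts with it. The 3 Dox libraries were the lowest and close to each other (quasi-likelihood log2 difference -1.06, unadjusted p = 0.00677, adjusted p = 0.327), also without both Rh2-30 mg/kg libraries (log2 difference -0.82, unadjusted p = 0.0464).

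Markers of fibroblasts, the main source of fibrillar collagen, were measured in the same libraries. The sum of 6 cardiac fibroblast markers was 801, 874 and 1265 CPM without Dox and 1076, 1109 and 898 CPM with it, lowest in Control and higher in each Dox library than there, but most of it was Gsn, at 608, 670.3 and 1001 CPM without Dox and 854, 858 and 739 CPM with it. Of the other 5, Tcf21, Dpt, Mfap5 and Pi16 were lowest in Rh2-30 mg/kg + Dox, the library in which most collagen genes were lowest. Tcf21 was so only by little, at 2.99 CPM against 3.06 CPM in Control. Pdgfra was instead lowest in Control, at 87.1, 89.4 and 99.1 CPM without Dox and 107, 110 and 96.4 CPM with it. Dpt, for example, stood at 35.6, 37.7 and 73.4 CPM without Dox and 38.3, 50.0 and 23.4 CPM with it. The sum of 6 myofibroblast markers, led by Postn and Acta2, was 439, 342 and 387 CPM without Dox and 373, 342 and 191 CPM with it, lowest in that same library, as was each of the 6 genes. Their part in the collagen levels was not tested.

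**Figure D3:**
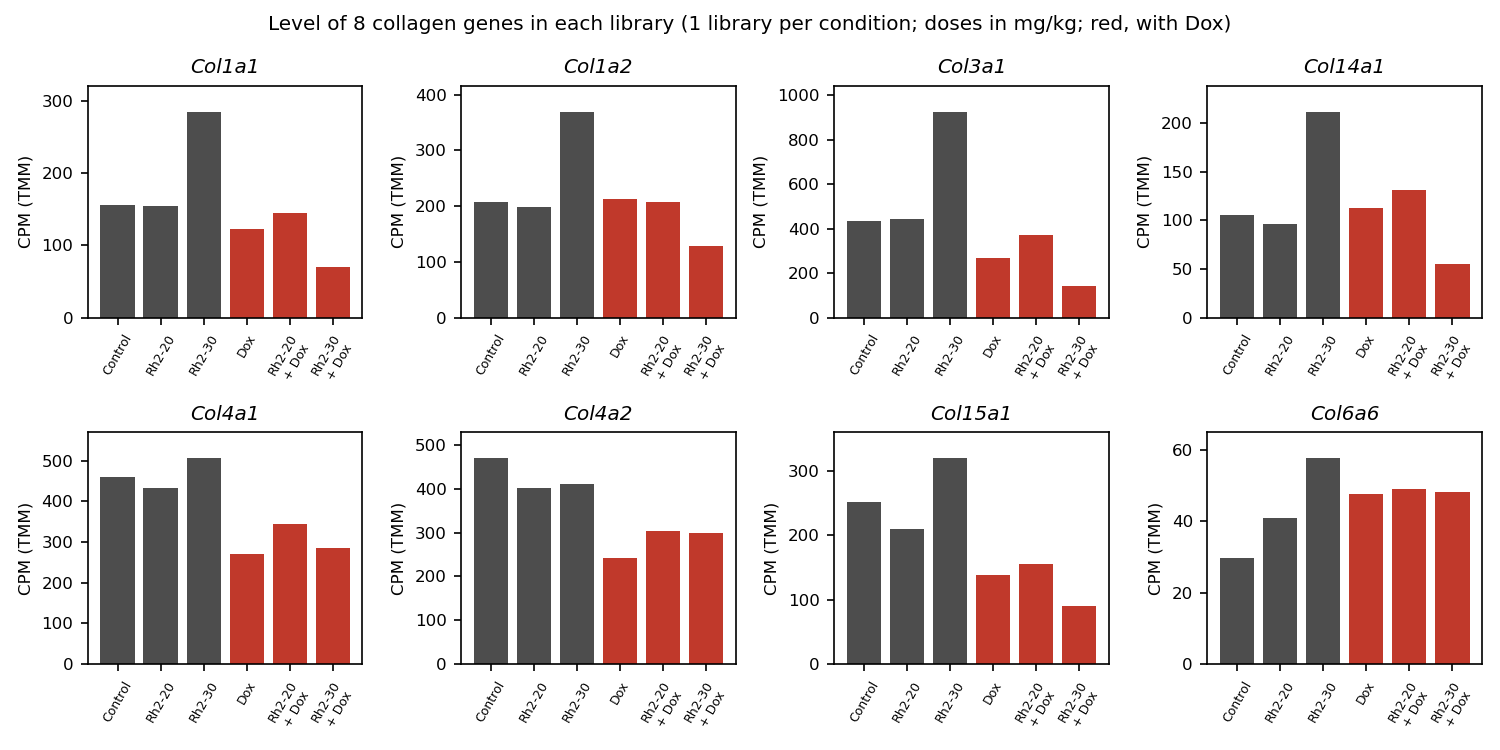
CPM (vertical axis) of 8 collagen genes in each of the 6 libraries (1 bar per library, red bars with Dox, no error bar because each condition had 1 library). Col4a1, Col4a2 and Col15a1 are lower in all 3 Dox libraries, Col1a2 and Col14a1 are not, and Col6a6 is lowest in Control.

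In the basement membrane class, Col4a1 and Col4a2 form the type IV trimer found in nearly all basement membranes. Col4a1 stood at 461, 432 and 506 CPM without Dox and 270.0, 345 and 285 CPM with it. Col4a2 stood at 470.0, 403 and 411 CPM without Dox and 242, 303 and 299.6 CPM with it. In both genes the 3 Dox libraries were below the others, Dox alone was the lowest, and the Rh2-30 mg/kg library did not stand out. The quasi-likelihood test gave for Col4a1 a log2 difference of -0.64, unadjusted p = 0.00125, adjusted p = 0.216, and for Col4a2 a log2 difference of -0.60, unadjusted p = 0.00155, adjusted p = 0.216. Without both Rh2-30 mg/kg libraries the log2 differences were -0.53 and -0.67. The gene spans of this pair overlap by 85 bases, and whether the counting used the strand is not given in the sources used here.

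Type XV collagen links basement membranes to nearby fibrils and is known from the capillaries of heart and muscle. Col15a1 stood at 252, 209.8 and 319.5 CPM without Dox and 138, 155 and 89.4 CPM with it. All Dox libraries were below all others, with the lowest value at 30 mg/kg of Rh2 (quasi-likelihood log2 difference -1.03, unadjusted p = 0.00322, adjusted p = 0.275). Without both Rh2-30 mg/kg libraries the log2 difference was -0.65 (unadjusted p = 0.00143). Col4a5, a chain of the more restricted type IV trimers, stood at 69.0, 59.4 and 71.2 CPM without Dox and 59.1, 49.0 and 63.9 CPM with it, and the groups overlapped (quasi-likelihood log2 difference -0.22, unadjusted p = 0.128, adjusted p = 0.612, and a log2 difference of -0.15 without the Rh2-30 mg/kg library). Endothelial markers, a sum of 5 genes that includes Pecam1 and Cdh5, reached 1512, 1438 and 1400.4 CPM without Dox and 1454, 1514 and 1322 CPM with it. The highest and lowest of these sums were both in libraries with Dox, and the largest share came from Kdr, at 664, 639.7 and 509 CPM without Dox and 611, 623 and 592 CPM with it. Cdh5, the cadherin of endothelial junctions, stood at 269, 250.2 and 270.4 CPM without Dox and 206, 238 and 224 CPM with it, so that its Dox libraries were all below the others, as in the 3 collagen genes. The groups overlapped in the other 4 markers. The part of these cells in the collagen levels was not tested.

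Of the other types, type VI forms beaded microfibrils around cells from Col6a1, Col6a2 and Col6a3. Col6a2 stood at 107, 101 and 147 CPM without Dox and 80.1, 83.3 and 57.8 CPM with it. Col6a1 stood at 103, 101 and 136 CPM without Dox and 90.3, 88.0 and 72.6 CPM with it. In both the Dox libraries were below the others, by less than in Col15a1 (quasi-likelihood, for Col6a2 log2 difference -0.68, unadjusted p = 0.00916, adjusted p = 0.344, and for Col6a1 log2 difference -0.44, unadjusted p = 0.0197, adjusted p = 0.402). Without both Rh2-30 mg/kg libraries the log2 difference was -0.34 for Col6a2 (unadjusted p = 0.00978) and -0.19 for Col6a1 (unadjusted p = 0.0782). Col6a3 stood at 104, 124 and 187 CPM without Dox and 100.5, 117 and 71.2 CPM with it, with overlapping groups (quasi-likelihood log2 difference -0.52, unadjusted p = 0.0822, adjusted p = 0.559, and a log2 difference of -0.23 without the Rh2-30 mg/kg library).

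Col6a6 and its chromosomal neighbours Col6a5 and Col6a4 encode alternative chains that resemble Col6a3, and they are described here after their values were seen, apart from Col6a5. Col6a6 stood at 29.6, 40.9 and 57.7 CPM without Dox and 47.7, 49.2 and 48.4 CPM with it. Control was the lowest library and Rh2-30 mg/kg the highest, with the 3 Dox libraries close together between them. Col6a5 stood at 2.82, 4.25 and 10.4 CPM without Dox and 6.32, 6.10 and 6.63 CPM with it, and Control was again the lowest. Over all 6 libraries neither reached an unadjusted p under 0.05 with Dox (quasi-likelihood unadjusted p = 0.438 for Col6a6 and 0.791 for Col6a5). Without both Rh2-30 mg/kg libraries the log2 difference was 0.46 for Col6a6 (unadjusted p = 0.0277) and 0.81 for Col6a5 (unadjusted p = 0.00953). Without the Rh2-30 mg/kg library alone they were 0.47 and 0.85. Reads shared between these similar chains were assigned by the authors' tools.

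Col14a1, which binds the surface of type I fibrils, stood at 106, 95.9 and 212 CPM without Dox and 113, 131 and 54.6 CPM with it. The pair at 30 mg/kg of Rh2 held both the highest and the lowest value, and the other libraries lay together (quasi-likelihood log2 difference -0.47, unadjusted p = 0.279, adjusted p = 0.741). The log2 difference was 0.28 without both libraries of that dose. Col8a1, a network-forming chain of vessel walls, stood at 16.0, 13.8 and 19.7 CPM without Dox and 13.4, 12.7 and 9.69 CPM with it. Its Dox libraries were below the others, Dox by little (quasi-likelihood log2 difference -0.46, unadjusted p = 0.0342, adjusted p = 0.45, log2 difference -0.18 without both Rh2-30 mg/kg libraries). Col28a1, known from peripheral nerve, stood at 5.95, 5.02 and 8.02 CPM without Dox and 3.30, 4.02 and 2.78 CPM with it. All Dox libraries were below all others (quasi-likelihood log2 difference -0.91, unadjusted p = 0.0046, adjusted p = 0.304), and the log2 difference was -0.58 without both Rh2-30 mg/kg libraries (unadjusted p = 0.0175). Summed Schwann cell markers were 13.6, 16.4 and 29.3 CPM without Dox and 18.0, 17.0 and 12.9 CPM with it.

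The test was repeated with both Rh2-30 mg/kg libraries left out, an alternative chosen after seeing the data. With the Rh2-30 mg/kg library alone left out, 25 collagen genes were lower and 16 higher (47% and 52.9% of all genes), and 9 had an unadjusted p under 0.05, 7 lower and 2 higher (4.77% and 4.31% of all genes). With both left out, 21 collagen genes were lower and 20 higher with Dox, the median log2 difference was -0.01, and 14 had an unadjusted p under 0.05, 7 in each direction (5.91% of all genes lower and 6.35% higher). The 7 lower genes were Col15a1, Col3a1, Col4a1, Col4a2, Col6a2, Col24a1 and Col28a1. The 7 higher genes were Col11a1, Col12a1, Col14a1, Col23a1, Col6a6, Col8a2 and Col6a5. In this fit Col11a1, a fibrillar chain of cartilage that is also found at low level elsewhere, had the smallest adjusted p of the collagen genes (quasi-likelihood log2 difference 1.68, adjusted p = 0.0822). It stood at 57, 51 and 105 counts without Dox and 191, 158 and 48 counts with it, so that Dox alone and Dox with the lower Rh2 dose were above the other 4. Over 12 fits of the Dox test, which included leaving out each library in turn, 6 genes were lower at an unadjusted p under 0.05 each time: Col15a1, Col4a1, Col4a2, Col6a2, Col24a1 and Col28a1.

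Without a model, the 3 Dox libraries were all below the 3 libraries without Dox in 12 collagen genes (9.16% of all genes tested) and all above them in 0 (7.85%). These were the 10 genes named with an unadjusted p under 0.05 together with Col16a1 and Col27a1. The 3 pairs of libraries of equal Rh2 dose share no library. Dox was the lower library in all 3 pairs in 17 of 41 collagen genes (17.6% of all genes) and the higher in 1, Col9a3 (15.9%), and 23 were mixed. The 17 held 5 of 10 fibrillar, 5 of 8 basement membrane and 7 of 23 other chains. With the pair at 30 mg/kg left out, 17 were lower in both remaining pairs (33.2% of all genes) and 15 higher (32.6%).

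The proportions between chains were compared as ratios of FPKM within each library, which do not depend on library scaling. Col3a1 to Col1a2 was 1.95, 2.09 and 2.35 without Dox and 1.18, 1.69 and 1.05 with it. Every Dox library was below every other library, with a mean of 1.31 ± 0.337 (SD, n = 3) against 2.13 ± 0.204. Col1a1 to Col1a2 was 0.663, 0.684 and 0.681 without Dox and 0.513, 0.620 and 0.475 with it. It lay within 0.663 to 0.684 without Dox and below that in each Dox library. Col6a6 to Col6a3 was 0.382, 0.447 and 0.413 without Dox and 0.650, 0.572 and 0.906 with it, higher in every Dox library. Col4a1 to Col4a2 was 0.955, 1.05 and 1.20 without Dox and 1.09, 1.12 and 0.928 with it, with no separation of the groups.

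Of 11 ratios computed, 5 did not overlap between the groups: the 2 described for type I and III, Col3a1 to Col1a1, Col6a1 to Col6a2 and Col6a6 to Col6a3. Each of these had a two-sided exact permutation p of 0.1, which is the smallest that 3 against 3 libraries can give, and 0.22 after Benjamini-Hochberg adjustment over the 11. The 11 pairs were picked by hand, and no share over other pairs of genes was computed to set beside the 5. The ratios among Col3a1, Col1a1 and Col1a2 share genes, so they are not independent of each other. For Col4a1 to Col4a2 the exact permutation p was 0.9.

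**Figure D4:**
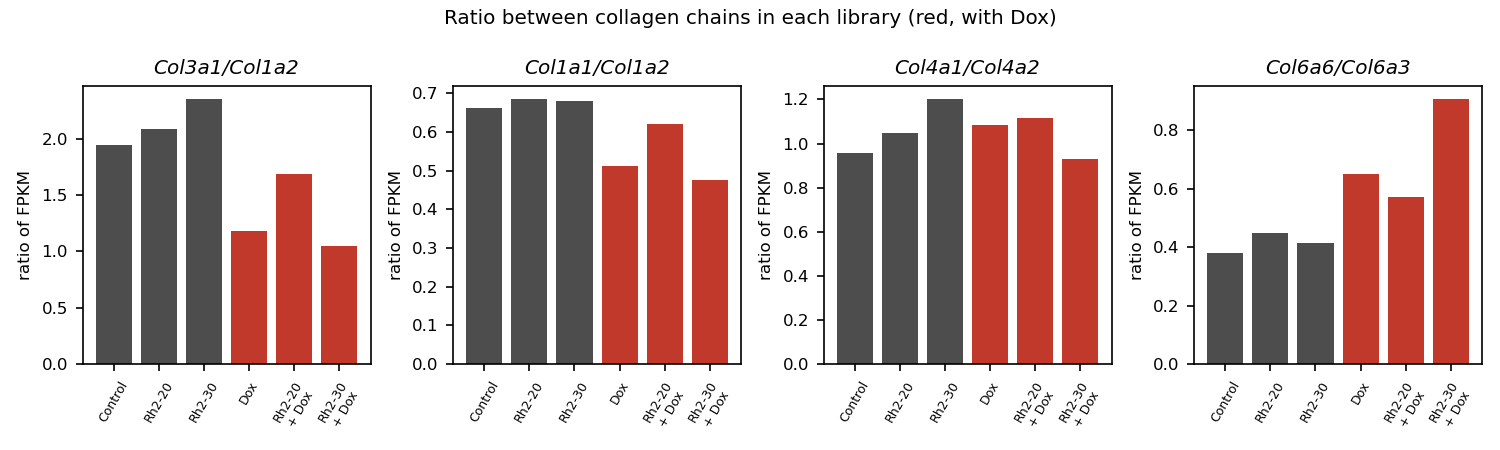
Ratio of FPKM between a pair of collagen chains (vertical axis) in each of the 6 libraries (1 bar per library, red bars with Dox, no error bar because each condition had 1 library). Col3a1 to Col1a2 and Col1a1 to Col1a2 are lower and Col6a6 to Col6a3 is higher in the 3 Dox libraries, while Col4a1 to Col4a2 overlaps.

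Single libraries were compared with Control without a test, as log2 ratios of normalized counts. For Col3a1 the 95% exact interval of the Dox ratio, -0.69, was -0.72 to -0.67 from counting error only. An interval that adds the common dispersion between libraries was -1.37 to -0.02, and at high counts such an interval reaches 0.675 to either side. In Dox alone, 22 collagen genes were above and 19 below Control, with a median of 0.03. Past 2-fold, 6 were higher (5.44% of all genes) and 1 was lower (3.58%). The 6 were low or sparse: Col4a6 (2.14, interval with dispersion 1.07 to 3.22), Col6a4, Col11a1, Col8a2, Col23a1 and Col6a5, with 8 to 235 counts in Control. Col9a2 was the gene past 2-fold lower (-1.03, interval with dispersion -1.99 to -0.06). The 14 genes of at least 5 FPKM had a median log2 ratio of -0.21 in Dox alone, with 11 below Control, and the 15 genes below 0.5 FPKM a median of 0.59, with 3 below.

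Rh2 alone was set against Control at each dose. In Rh2-20 mg/kg no collagen gene was past 2-fold higher than Control (3.35% of all genes), and 3 were past 2-fold lower (2.8%). These were Col9a2, at 51, 18 and 31 counts without Dox and 25, 13 and 18 counts with it, and Col4a6 and Col6a4, which had 0 counts in that library. Set against a floor of 3 counts, Col4a6 was 5.04-fold and Col6a4 2.88-fold lower than in Control, where they had 14 and 8 counts. These folds leave out the counting error of the Control counts, so they are not lower bounds. In Rh2-30 mg/kg 35 collagen genes were above Control, with a median log2 ratio of 0.40 against 0.03 over all genes. Past 2-fold, 7 were higher (8.48% of all genes) and 0 lower (1.63%). They included Col3a1 (1.10, interval with dispersion 0.42 to 1.77) and Col23a1, a transmembrane collagen (2.09, 1.33 to 2.85). This is the library with the fat, mesothelium and Schwann cell RNA, and it was the highest of 6 in 22 of 41 collagen genes, where it was the highest in 26.1% of all genes. The part of that RNA in the collagen levels was not tested.

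Over all libraries, 16 collagen genes were higher and 25 lower in the 4 with Rh2 than in the 2 without, with Dox as a term in the quasi-likelihood test (51.8% and 48.2% of all genes). An unadjusted p under 0.05 was reached by 2, both lower (4.65% of all genes), and none passed adjustment (smallest adjusted p = 0.567, by DESeq2's Wald test 0.271). Col4a3, a chain of the restricted type IV trimers, stood at 15.8, 9.23 and 14.8 CPM without Dox and 15.3, 9.01 and 10.3 CPM with it. Every Rh2 library was below Control and Dox (quasi-likelihood log2 difference -0.53, unadjusted p = 0.0427, adjusted p = 0.568). Its gene span overlaps that of Col4a4 by 114 bases. Col19a1, which belongs to the fibril-associated group, stood at 1.64, 1.30 and 1.20 CPM without Dox and 2.13, 0.938 and 0.759 CPM with it. It too was lower in all 4 Rh2 libraries (quasi-likelihood log2 difference -0.88, unadjusted p = 0.0232, adjusted p = 0.567), as was Col5a3, the only other such gene. The 4 Rh2 libraries were thus below both others in 3 collagen genes (9.08% of all genes) and above them in 0 (9.87%). Without the Rh2-30 mg/kg library the log2 difference with Rh2 was -0.70 for Col4a3 and -0.90 for Col19a1 (quasi-likelihood unadjusted p = 0.00203 and 0.0319). Neither gene was lower at an unadjusted p under 0.05 without Rh2-20 mg/kg + Dox or without Rh2-30 mg/kg + Dox. Leaving out Rh2-20 mg/kg kept 1 of the 2. Leaving out Control or Dox left 1 library without Rh2, so no p-value is given for these fits. Their median log2 difference with Rh2 over the collagen genes was -0.29 without Control and 0.15 without Dox (-0.01 and 0.03 over all genes). Without the Rh2-30 mg/kg library 35 collagen genes were lower with Rh2 and 6 higher (49.8% and 50.2% of all genes). Without the Dox library 10 were lower and 31 higher (46% and 54%). Without the Rh2-30 mg/kg + Dox library 19 were lower and 22 higher (46.8% and 53.2%).

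Adding Rh2 to Dox was compared with Dox alone. In Rh2-20 mg/kg + Dox 13 collagen genes were above and 28 below the Dox library, with a median log2 ratio of -0.08. Past 2-fold 0 were higher (3.08% of all genes) and 6 lower (3.44%), all 6 below 0.5 FPKM. Of the 8 chains with the highest FPKM, 6 lay above Dox alone and 2 below it. The log2 ratio was 0.48 for Col3a1, 0.35 for Col4a1, 0.32 for Col4a2, -0.04 for Col1a2, 0.17 for Col15a1, 0.24 for Col1a1, 0.06 for Col6a2 and -0.04 for Col6a1, and the interval with dispersion included 0 for each of them. In Rh2-30 mg/kg + Dox 35 collagen genes were below the Dox library, with a median of -0.52 against -0.02 over all genes. Past 2-fold 0 were higher (2.76% of all genes) and 7 lower (7.35%). Among the 7 were Col11a1 (-2.03), Col8a2 (-1.63) and Col14a1 (-1.05). Of the 8 chains with the highest FPKM, Col4a1 (285 against 270 CPM) and Col4a2 (299.6 against 242 CPM) lay above Dox alone at this dose. The rest of the 8 lay below it, such as Col3a1 at 144 against 267 CPM. Col17a1 had 0 counts in Rh2-20 mg/kg + Dox and 23 to 32 in the other libraries. Set against a floor of 3 counts it was 8.80-fold lower there than in Control, without the counting error of Control.

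Against Control, 4 collagen genes in Rh2-20 mg/kg + Dox were past 2-fold higher (5.13% of all genes) and 2 lower (3.62%), with a median of -0.16. For Rh2-30 mg/kg + Dox 3 were past it upwards (4.08%) and 7 downwards (6.85%), with a median of -0.53. The 7 were led by Col3a1 (-1.59, interval with dispersion -2.26 to -0.91), Col9a2 and Col15a1 (-1.49, -2.17 to -0.82). All 10 fibrillar genes were below Control there, and the library was the lowest of 6 in 21 of 41 collagen genes (23.1% of all genes). These comparisons share the Control library. Within the Rh2 doses, Dox had 4 collagen genes past 2-fold higher (4.09% of all genes) and 2 lower (2.87%) at 20 mg/kg, and 0 higher (2.4%) and 16 lower (12.1%) at 30 mg/kg.

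**Figure D5:**
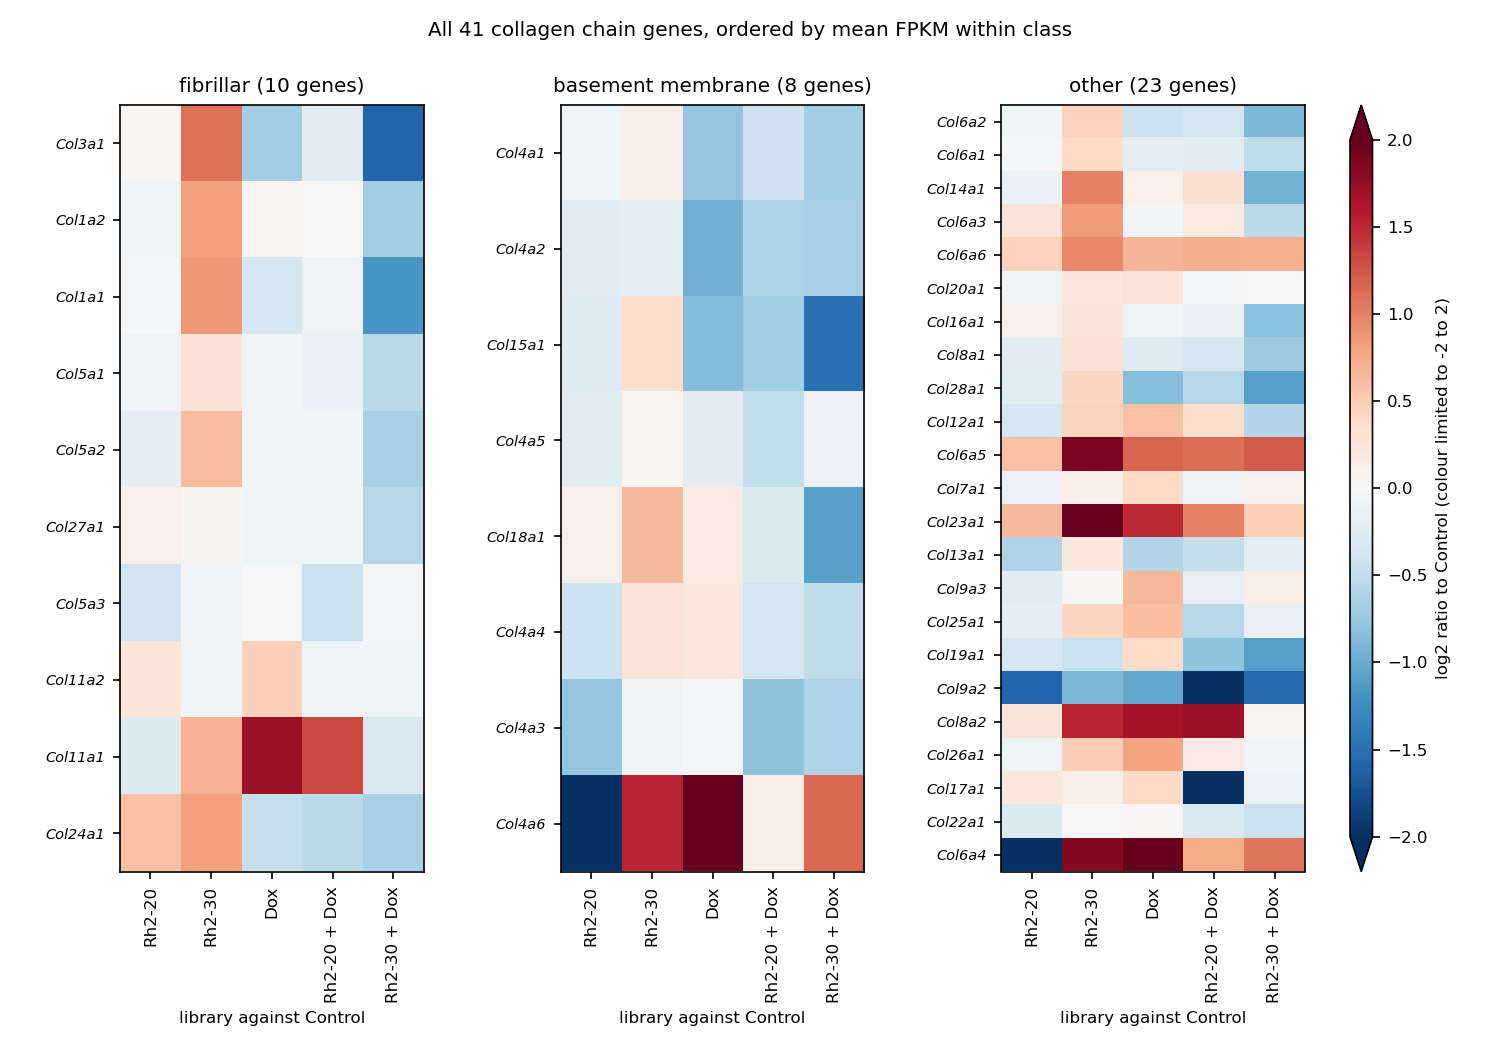
Log2 ratio to Control (colour, limited to -2 to 2, red higher and blue lower) of all 41 collagen genes (rows, by class and in order of mean FPKM) in the 5 treated libraries (columns). The Rh2-30 mg/kg column is mostly red and the Rh2-30 mg/kg + Dox column mostly blue, and the darkest cells are in low rows, including the 3 genes with 0 counts in 1 library.

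Whether the difference with Dox depended on Rh2 was tested as an interaction. It was lower with Rh2 in 36 collagen genes and higher in 5 (51.1% and 48.9% of all genes), with a median of -0.63 against -0.01 over all genes. An unadjusted p under 0.05 was reached by 2 genes, 1 in each direction (1.82% of all genes lower and 0.895% higher), and none passed adjustment (smallest quasi-likelihood adjusted p = 0.988, by DESeq2's Wald test 0.552). Col4a2 was the higher one (log2 difference 0.52, unadjusted p = 0.0394, adjusted p = 0.988 by the quasi-likelihood test). Col11a2, a fibrillar chain of cartilage, was the lower one and stood at 17.2, 20.3 and 16.5 CPM without Dox and 23.8, 16.2 and 16.2 CPM with it, so that only the Dox library was well above the rest (log2 difference -0.65, unadjusted p = 0.0489, adjusted p = 0.988 by the quasi-likelihood test). Without the Rh2-30 mg/kg library 30 collagen genes were lower and 11 higher (49.1% and 50.8% of all genes). The median in that fit was -0.22, against 0.01 over all genes.

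The machinery that makes and remodels collagen was described with 8 lists of genes, all members of which passed the count minimum. None of their genes passed adjustment in the Dox or the Rh2 test. With Dox, 5.91% of all genes were lower and 4.2% higher at an unadjusted p under 0.05, for comparison with each list. Before secretion, prolines and lysines of the chains are hydroxylated and some lysines glycosylated. Of 15 such genes, 2 had an unadjusted p under 0.05 and were higher with Dox and 2 were lower. Plod2, the lysyl hydroxylase for cross-link sites, stood at 126, 125 and 152 CPM without Dox and 163, 166 and 156 CPM with it (quasi-likelihood log2 difference 0.27, unadjusted p = 0.0337, adjusted p = 0.447). P4ha2, a prolyl hydroxylase subunit, was also higher (log2 difference 0.26, unadjusted p = 0.0433). P3h1 (-0.32, unadjusted p = 0.019) and its partner Crtap (-0.31, unadjusted p = 0.0474) were lower in the quasi-likelihood test. P4ha1, the most abundant of the list by counts, had a log2 difference of 0.05. Of 7 genes of folding and export, 0 reached that p in either direction, and Mia2, the most abundant, differed by -0.13.

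Propeptides are then cut off and the fibrils cross-linked. Of 8 genes of propeptide removal, 1 was higher and 2 lower at an unadjusted p under 0.05. Adamts3 stood at 20.8, 20.3 and 21.5 CPM without Dox and 35.8, 27.0 and 38.2 CPM with it, with all 3 Dox libraries above the others (quasi-likelihood log2 difference 0.69, unadjusted p = 0.00146, adjusted p = 0.216). Adamts2, a related procollagen N-propeptidase, stood at 46.7, 49.3 and 78.2 CPM without Dox and 35.2, 48.2 and 30.6 CPM with it, so that its differences went the other way and the groups overlapped (quasi-likelihood log2 difference -0.61, unadjusted p = 0.0405, adjusted p = 0.47). Tll1, a relative of Bmp1, was lower as well (-0.81, unadjusted p = 0.0104), and the C-propeptidase Bmp1 differed by -0.05. Of 7 cross-linking genes, 1 was higher and 2 lower. Pxdn, the peroxidase that cross-links type IV collagen, stood at 180.0, 154 and 166 CPM without Dox and 117, 119 and 114 CPM with it. All 3 Dox libraries lay below the others and close to each other (quasi-likelihood log2 difference -0.51, unadjusted p = 0.000574, adjusted p = 0.162). Loxl2, a lysyl oxidase that also acts on type IV, was lower (log2 difference -0.69, unadjusted p = 0.0135), and Lox was higher (0.63, unadjusted p = 0.0275).

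Partners of collagen in the matrix and at the cell surface came next. Of 8 proteoglycans that bind fibrils, 0 had an unadjusted p under 0.05, and the most abundant, Dcn (decorin), differed by 0.23. Of 11 basement membrane partners, 0 were higher and 4 lower at that p. Sparc, which binds collagen and assists its deposition, stood at 183, 152 and 221 CPM without Dox and 115, 128 and 83.1 CPM with it. Its Dox libraries were all below the others (quasi-likelihood log2 difference -0.77, unadjusted p = 0.00557, adjusted p = 0.314). The other 3 were the nidogen Nid2 (-0.48, unadjusted p = 0.0114) and the laminin chains Lama4 (-0.34, unadjusted p = 0.0237) and Lamb1 (-0.22, unadjusted p = 0.0429). Perlecan (Hspg2), the most abundant of the list, differed by -0.05. The median of the 11 was -0.05, against -0.41 for the 8 basement membrane collagen genes.

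Of 10 collagen receptors, 2 were higher and 1 lower at an unadjusted p under 0.05. Gp6, the platelet collagen receptor, stood at 0.312, 0.400 and 0.981 CPM without Dox and 4.35, 5.48 and 0.368 CPM with it, high with Dox alone and with Dox at 20 mg/kg of Rh2, and at the level of the libraries without Dox when Rh2 was 30 mg/kg (quasi-likelihood log2 difference 2.58, unadjusted p = 0.0257, adjusted p = 0.422). Itga10 was higher (0.37, unadjusted p = 0.0393) and the leukocyte receptor Lair1 lower (-0.85, unadjusted p = 0.0322), and the integrin chain Itgb1, the most abundant, differed by -0.22. Of 12 genes of collagen degradation, 1 was higher and 1 lower. Timp4, an inhibitor of metalloproteinases, stood at 9.97, 23.6 and 15.2 CPM without Dox and 18.5, 28.4 and 56.4 CPM with it, lowest in Control and highest in Rh2-30 mg/kg + Dox (quasi-likelihood log2 difference 1.08, unadjusted p = 0.0492, adjusted p = 0.493). The protease Ctsk was lower (-0.54, unadjusted p = 0.0158), and Timp3, the most abundant, differed by 0.24.

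The lists were also read, for Dox and for Rh2, from the fits without the Rh2-30 mg/kg library, a choice made after seeing the data. For Dox, an unadjusted p under 0.05 was then not reached by P4ha2, P3h1, Crtap, Adamts2, Itga10, Lair1, Lamb1 and Timp4. It was newly reached by Mia2 and Tll2, which were lower, and by Pcolce2, Dcn, Omd and Timp3, which were higher. Of all genes, 4.77% were lower and 4.31% higher at that p in this fit. For Adamts2 the log2 difference was -0.33 (quasi-likelihood unadjusted p = 0.126), for Sparc -0.61 (0.0141) and for Pxdn -0.51 (0.00143). None passed adjustment.

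With Rh2, the same lists gave 1 lower gene of hydroxylation (Colgalt2), 2 lower of propeptide removal (Bmp1, Tll2), 1 higher of cross-linking (Tgm2), 3 lower of basement membrane partners (Agrn, Hspg2, Lama2) and 2 higher of degradation (Timp4, Mmp8) at an unadjusted p under 0.05, and 0 in the other 3 lists. Over all genes 4.65% were lower and 4.09% higher at that p. Without the Rh2-30 mg/kg library Colgalt2, Hspg2 and Lama2 did not reach it, while Tmem38b and Mia3, of folding and export, did and were higher. Of all genes, 3.74% were lower and 4.17% higher at that p in this fit. Agrn, the proteoglycan agrin, stood at 252, 197 and 177 CPM without Dox and 249.6, 196 and 193 CPM with it. All 4 Rh2 libraries were below Control and Dox, as they were for Hspg2 (quasi-likelihood for Agrn log2 difference -0.39, unadjusted p = 0.00337, adjusted p = 0.567, for Hspg2 log2 difference -0.26, unadjusted p = 0.0433, adjusted p = 0.569). Timp4 was again higher (1.08, unadjusted p = 0.0177).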

How the data were processed

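The authors trimmed the reads, aligned them to mm10 with HISAT (HISAT2 2.1.0 in the submitters' processing notes) and estimated abundance with StringTie 2.1.3b, from libraries of 101-base reads made by RNA capture. The authors deposited whole-number counts per gene without normalization, FPKM per transcript length and TPM, which was not used here. A capture kit pulls down probed transcripts, so levels between genes also carry probe efficiency. Strand use in counting is not given in the sources used here.

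The analysis of the counts used edgeR 4.0.16 and limma 3.58.1 under R 4.3.3, with Python 3.11.15 and matplotlib 3.10.9 for figures. The 18328 genes that averaged 10 counts or more entered TMM normalization and two-sided quasi-likelihood tests with Benjamini-Hochberg adjustment over all of them. The 3 tests used all 6 libraries: Dox alone, Rh2 with Dox as a term, and their interaction. Single-library ratios used a prior count of 0.5, exact conditional binomial 95% intervals for counting error only, and wider intervals with a common dispersion of 0.0285 (all libraries as 1 group). Folds against 0 counts were taken against a floor of 3 counts, without the counting error of the other library. Ratios of FPKM between chains were tested by exact permutation. The 3 quasi-likelihood tests were first run on simulated data, with seeded changes of known size. The permutation test and DESeq2's Wald test were not.

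Collagen genes, pathway lists and markers were chosen with earlier results of these data known. Named were the 4 chains of highest FPKM per class, those with an unadjusted p under 0.05 in any test, the extremes of each comparison with Control and, per pathway list, the most abundant gene and those with such a p, at most 5 by p. Others were chosen after their values were seen. Alternatives were DESeq2 1.42.0 size factors and Wald test, no count filter, Rh2 dose as a term, no Dox term, each library left out, FPKM plus 1 or plus 0.1, and, chosen after seeing the data, no Rh2-30 mg/kg libraries.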

Additional observations from a re-analysis of the deposited data

Results flagged for a closer look

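In 2 collagen genes the difference with Dox had opposite signs without Rh2 and at 30 mg/kg of Rh2, by more than 2-fold either way. Col23a1, a transmembrane collagen, was 1.50 higher on the log2 scale in Dox than in Control, but at 30 mg/kg of Rh2 its log2 ratio with against without Dox was -1.61, a difference of -3.11. Col8a2, a network-forming chain of vessel walls and cornea, gave 1.67 and -1.49, a difference of -3.16. Col8a2 had few counts, at 14, 18 and 47 counts without Dox and 46, 51 and 15 counts with it. Col23a1 stood at 83, 141 and 404 counts without Dox and 237, 184 and 121 counts with it. At 20 mg/kg of Rh2 both genes were higher with Dox than without it. With 1 library in each arm the difference was not tested, and the second ratio of both genes rests on the Rh2-30 mg/kg library.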

How the results depend on the processing

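The count of 10 collagen genes at an unadjusted p under 0.05 with Dox was 10 with DESeq2's size factors and without a count filter, 12 by DESeq2's Wald test, 7 with Rh2 dose as a term, and 7 to 11 with each library left out; at an adjusted p under 0.05 the Wald test gave 5. For Rh2 that count was 0 to 3 with each library left out. It was 0 without Rh2-20 mg/kg + Dox. For the interaction it was 1 with DESeq2's size factors, 1 without a count filter and 1 to 6 with a library left out (6 without Rh2-20 mg/kg), where leaving out Control or Dox could not be fitted. On FPKM plus 1, the counts past 2-fold against Control were 0 and 2 for Rh2 at 20 and 30 mg/kg, 0 for Dox, and 0 and 3 for Dox with Rh2 at 20 and 30 mg/kg, and on FPKM plus 0.1 they were 0, 6, 0, 0 and 4 in this order. Against Dox they were 0 and 0 on FPKM plus 1, and 0 and 4 on FPKM plus 0.1. Within Rh2 doses they were 0 and 10, and 0 and 15. No collagen gene was higher in all 3 Dox pairs on FPKM plus 1 or plus 0.1 (0 each). The pseudocount shrinks the ratios of genes below 0.5 FPKM. Over 1752 values of single genes, 1444 were the same, 303 moved and 5 passed a threshold they had missed. For a test value, the same meant an unchanged sign and an unchanged call at an adjusted p under 0.05, whatever its size. For a ratio it meant a value inside its counting interval. Of the 1752, 86 had another sign than the value as reported. No collagen gene was called in the quasi-likelihood tests as reported, so no call could be lost. The log2 difference with Dox of Col14a1 was 0.28 in place of -0.47 without both Rh2-30 mg/kg libraries, that of Col1a2 0.05 in place of -0.50 and that of Col23a1 0.91 in place of -0.14. The labels give no replicate numbers. Libraries with and without Dox can be paired by Rh2 dose, and the fit with dose as a term is that pairing. A chain with under 50 counts, such as Col4a6, Col17a1 or Col6a4, is limited by counting error.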
